A study of Mus musculus with 48 samples.

Results

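IGHV1 (J558) is the largest family of mouse heavy-chain variable genes, and its members lie strung along the upstream part of the immunoglobulin heavy-chain locus on chromosome 12. B cell receptor (BCR) heavy-chain repertoires of the lacrimal gland (LG) and the spleen were examined for how these genes were used along the locus. The family was taken as every gene whose assigned name begins with IGHV1-, with IGHV1-9, IGHV1-26, IGHV1-53, IGHV1-55 and IGHV1-69 set aside. This gave 43 of the 148 IGHV genes seen. The number after IGHV1- gave the order, and 20 genes numbered up to 49 were called proximal, because they lie nearer to the diversity (D) segments, and 23 genes numbered 50 and above were called distal. A clonotype was all sequences of a library with the same IGHV and IGHJ genes and the same amino acids in HCDR3, and the members made up 1408824 of 3464316 spleen clonotypes and 17308 of 40605 LG clonotypes.

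A heavy-chain variable exon is assembled in the bone marrow when a D segment that has joined an IGHJ segment is joined to 1 of the many IGHV genes upstream. The upstream IGHV genes, the J558 family among them, are brought close to the D segments by contraction of the locus, which depends on factors such as Pax5 and YY1, whereas the families nearest to the D segments are reached without it. Proximal and distal here are sides within the J558 family, both upstream of those nearest families. After assembly, activated B cells can switch from IgM to IgG or IgA and can mutate the variable exon, so a repertoire read by isotype and mutation reflects both assembly and later selection. IGHV1-72 is known as V186.2, the gene that dominates the response of C57BL/6 mice to the hapten NP.

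All 24 mice were C57BL/6 (B6), each gave an LG and a spleen library, and the mouse was the replicate. In the NOD-FMT group, 10 mice had their own flora reduced with ampicillin, vancomycin and metronidazole in the drinking water and, from 5 weeks of age, were gavaged daily for 3 weeks with a suspension of feces of 30 male NOD.B10.H2b donors aged over 20 weeks, a strain that develops autoimmune dry eye. In the PBS-T group, 9 mice went through the same schedule with PBS in place of feces. The NC group was 5 untreated B6 mice, which served as BCR repertoire controls. No antibiotic, gavage or age is given for them, so in any difference from the NC group the transfer, the antibiotics, the gavage and age cannot be told apart.

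The libraries were amplified from total RNA with primers in the variable and constant exons, and each count stands for 1 consensus sequence built from reads with the same molecule tag. Totals ran from 40513 to 360216 counts for the LG and from 86717 to 2302185 for the spleen, and 560 to 17213 clonotypes per LG library remained after sequences shared by 3 or more mice of a tissue were removed. Because only heavy-chain transcripts were amplified, no marker of the tissue was present to check the labels against, and more cells using a gene cannot be told apart from more RNA per cell. Of the member clonotypes of the LG, the share in which IgA was seen ran from 116 of 356 in PBS-T mouse 9 to 796 of 845 in NOD-FMT mouse 2.

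Several libraries stood apart. The LG library of PBS-T mouse 5 held 17213 clonotypes against 560 to 2504 in the others, lost 39.8% of its counts to the filter, and only 0.408% of its sequences recurred in the mouse's own spleen library, against 4.77% to 24.4% in the other mice. It also held sequences of other LG libraries, among them 8.81% of those of PBS-T mouse 7 and 2.04% of those of PBS-T mouse 8. Of the LG sequences of NC mice 4, 3, 5, 1 and 2 it held 7.69%, 5.86%, 3.70%, 3.28% and 1.78%. The LG library of NC mouse 2 shared 806 sequences, 22.1% of its own, with that of NC mouse 3, and 9.37% of its sequences were in the spleen of NC mouse 3 against 6.08% in its own. Of the spleen libraries, that of PBS-T mouse 6 lost the most counts to the filter, 66.6%, against at most 23.4% in the remaining libraries other than that of the LG of PBS-T mouse 5. For both of these libraries the study's own tables give far smaller losses. Values without PBS-T mouse 5 and NC mouse 2 are given where they changed a result.

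The family's order on the chromosome followed its numbers. Of the 43 members, 42 were placed in the mouse genome annotation (GENCODE M21, GRCm38/mm10), between positions 114487136 and 116000461 of chromosome 12, a stretch of 1513.3 kb, all on the minus strand. None of the 861 pairs of placed genes was out of order. The most distal proximal gene, IGHV1-49, lay at chr12:115055223-115055656 and the first distal gene, IGHV1-50, at chr12:115119748-115120219. The member that could not be placed was IGHV1-87, whose IgM clonotypes in the spleen carried 45 mismatches to the germline gene as their commonest number, and IGHV1-14 is annotated as a pseudogene.

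The stretch from CDR1 to CDR2 shows how alike the members are. CDR1 and CDR2 are the germline-encoded antigen-contact loops and are in capitals, and the framework between them is in lower case. The sequences are 5′ to 3′ in the reading direction, as held by unmutated deposited spleen sequences of NC mice, and each lies in a longer stretch identical to the annotated transcript of the same symbol. The proximal genes shown are the most used ones and the last before the boundary.
IGHV1-18: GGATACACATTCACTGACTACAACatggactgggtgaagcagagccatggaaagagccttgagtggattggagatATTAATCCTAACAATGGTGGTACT
IGHV1-22: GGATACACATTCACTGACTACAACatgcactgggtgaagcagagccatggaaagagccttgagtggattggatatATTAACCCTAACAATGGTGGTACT
IGHV1-49: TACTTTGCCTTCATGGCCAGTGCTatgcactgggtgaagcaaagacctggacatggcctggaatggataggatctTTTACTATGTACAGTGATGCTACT
The distal genes that start with the same primer site include the most used members of the family, the first gene past the boundary and the gene that differed between the spleens of NOD-FMT and PBS-T mice.
IGHV1-50: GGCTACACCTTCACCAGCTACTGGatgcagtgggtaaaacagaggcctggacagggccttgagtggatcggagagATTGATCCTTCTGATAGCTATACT
IGHV1-52: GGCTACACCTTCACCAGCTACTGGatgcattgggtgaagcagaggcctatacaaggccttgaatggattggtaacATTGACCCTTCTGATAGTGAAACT
IGHV1-59: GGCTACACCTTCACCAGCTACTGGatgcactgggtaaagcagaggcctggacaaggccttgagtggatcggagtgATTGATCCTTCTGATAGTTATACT
IGHV1-61: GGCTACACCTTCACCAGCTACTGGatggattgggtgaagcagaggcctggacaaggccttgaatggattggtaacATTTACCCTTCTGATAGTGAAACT
IGHV1-64: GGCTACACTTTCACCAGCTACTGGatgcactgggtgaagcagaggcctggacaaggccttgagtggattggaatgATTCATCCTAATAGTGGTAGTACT
IGHV1-72: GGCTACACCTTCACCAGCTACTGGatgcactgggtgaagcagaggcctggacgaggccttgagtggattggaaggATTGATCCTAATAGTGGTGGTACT
The last genes shown are distal genes called higher in the LG or in spleen IgA: IGHV1-75, IGHV1-76 and IGHV1-78 in both, and IGHV1-58 with the largest rise in spleen IgA.
IGHV1-58: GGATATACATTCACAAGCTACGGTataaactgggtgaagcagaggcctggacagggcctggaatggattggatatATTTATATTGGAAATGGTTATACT
IGHV1-75: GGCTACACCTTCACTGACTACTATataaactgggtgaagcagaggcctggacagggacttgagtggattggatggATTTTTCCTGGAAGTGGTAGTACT
IGHV1-76: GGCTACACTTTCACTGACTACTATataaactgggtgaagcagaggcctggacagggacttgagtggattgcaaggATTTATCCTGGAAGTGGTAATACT
IGHV1-78: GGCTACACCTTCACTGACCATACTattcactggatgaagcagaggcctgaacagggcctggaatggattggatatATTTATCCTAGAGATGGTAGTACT

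These genes lay at chr12:114682632-114683065 (IGHV1-18), chr12:114746273-114746706 (IGHV1-22), chr12:115145487-115145919 (IGHV1-52), chr12:115312166-115312599 (IGHV1-58), chr12:115335082-115335514 (IGHV1-59), chr12:115359140-115359572 (IGHV1-61), chr12:115507545-115508031 (IGHV1-64), chr12:115757984-115758461 (IGHV1-72), chr12:115833950-115834418 (IGHV1-75), chr12:115847881-115848331 (IGHV1-76) and chr12:115868773-115869227 (IGHV1-78). The stretches shown belong to the variable exon. Over the 42 placed members there were 31 distinct CDR1 and 36 distinct CDR2 sequences, and in capitals IGHV1-50, IGHV1-52, IGHV1-59, IGHV1-61 and IGHV1-72 hold the same CDR1. Some members could hardly be told from another annotated gene. Over the compared stretch of 250 bases, IGHV1-62-2 was identical to Ighv1-71, IGHV1-72 was 1 base from Ighv1-62-3, IGHV1-20 and IGHV1-37 were 3 bases apart, and IGHV1-52 and IGHV1-61 were 4 bases apart. Assignments within these pairs are uncertain wherever a sequence is mutated, and that of IGHV1-62-2 also where it is not. IGHV1-59 was 8 bases from its nearest relative, Ighv1-69, which is 1 of the genes set aside.

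Some of the variable-exon primers match members of 1 side of the locus. Of the 42 placed members, 26 hold an exact site for at least 1 of the study's primers. The V-specific parts of the primers with the most exact sites among the members are shown.
mnphf1: caggtccaactgcagcagc
mnphf5: gaggtccagctgcaacagtc
mnphf29: caggtccagctgcagcag
mnphf7: gaggttcagctgcagcagtc
mnphf32: caggtccagctgaagcagtc
The 7 members with an exact mnphf1 site, IGHV1-50, IGHV1-52, IGHV1-59, IGHV1-61, IGHV1-64, IGHV1-72 and IGHV1-74, were all distal. The 5 members with an exact mnphf5 site, IGHV1-18, IGHV1-19, IGHV1-22, IGHV1-34 and IGHV1-36, were all proximal. The primer mnphf29 matched 6 members on both sides, the proximal IGHV1-4 and IGHV1-7 and the distal IGHV1-54, IGHV1-62-2, IGHV1-63 and IGHV1-66, mnphf7 matched 3, and mnphf32 only IGHV1-76 and IGHV1-77. The start of the exon of IGHV1-82, the third most used member in the spleen, and of the 3 least used placed members is shown with mismatches to the closest primer in capitals.
IGHV1-82: Caggttcagctgcagcagtc
IGHV1-14: gagTtCcagctgcagcagtc
IGHV1-43: gaggtCAagctgcagcagtc
IGHV1-56: Caggttcagctgcagcagtc
The sites of IGHV1-82 and IGHV1-56 are the same, and whether a gene's primer match bears on its use was not tested. The mnphf1 members made up 34.2% ± 1.48 (SD, n = 24) of member clonotypes in the spleen and 28.4% ± 5.33 in the LG.

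Use of the family was uneven, and IGHV1-64 and IGHV1-72 had the largest mean shares in both tissues. In the spleen, IGHV1-64 held 9.30% ± 0.441 of member clonotypes (SD, n = 24, lowest 8.60% and highest 10.3%), IGHV1-72 held 7.28% ± 0.419 (6.59% to 8.01%) and IGHV1-82 held 6.01% ± 0.346 (5.36% to 6.84%). The lowest share of IGHV1-64 was above the highest of IGHV1-72, whereas IGHV1-72 and IGHV1-82 overlapped. They were followed by IGHV1-18 with 5.83% ± 0.368 and IGHV1-80 with 5.45% ± 0.533, and these neighbours did overlap. Then came IGHV1-52 with 4.79% ± 0.336, IGHV1-22 with 4.75% ± 0.357 and IGHV1-81 with 4.435% ± 0.270, which did not differ beyond their spread. The 8 genes together held 47.85% ± 0.862, and 6 of the 8 were distal.

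At the other end, IGHV1-14, the pseudogene, held 0.0213% of spleen member clonotypes, IGHV1-87 held 0.0614%, IGHV1-43 held 0.0661% and IGHV1-56 held 0.126%. There were 17 members under 1%, 10 of them proximal and 7 distal. The median member share was 1.02% for proximal and 2.53% for distal genes. Along the locus the values did not form a slope: between the number of a gene and its spleen share, Spearman's rho across the 43 genes was 0.135 and Pearson's r 0.159, a description across genes of the same libraries. At the boundary, IGHV1-49 held 0.202% ± 0.0485 and its neighbour IGHV1-50 held 4.40% ± 0.290. A step of this kind was not particular to the boundary. Within the distal side, IGHV1-63 ran from 0.701% to 1.18% over the spleen libraries and its neighbour IGHV1-64 from 8.6% to 10.3%.

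In the LG the spread between mice was wider. IGHV1-64 held 9.31% ± 3.41 of member clonotypes (SD, n = 24, 3.30% to 16.8%), IGHV1-72 held 9.11% ± 4.66 (5.02% to 26.7%) and IGHV1-22 held 7.48% ± 7.26 (1.375% to 32.1%). These ranges overlapped, so their order was not resolved. The extremes came from single mice: IGHV1-72 reached 26.7% in NOD-FMT mouse 5, and IGHV1-22 reached 32.1% in PBS-T mouse 8, 25.4% in PBS-T mouse 7 and 15.9% in NC mouse 5. IGHV1-18 followed with 6.199% ± 2.80, IGHV1-76 with 5.635% ± 2.44 and IGHV1-82 with 5.20% ± 3.15, and IGHV1-81 with 4.10% ± 1.93 and IGHV1-80 with 3.82% ± 2.72 completed the 8 most used genes, which held 50.85% ± 6.74. IGHV1-14 held 0.432% in the LG, on 38 clonotypes. Across the 43 genes the mean shares of the 2 tissues had a Spearman's rho of 0.92 and a Pearson's r of 0.895, which describes the gene means and carries no test.

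**Figure D1:**
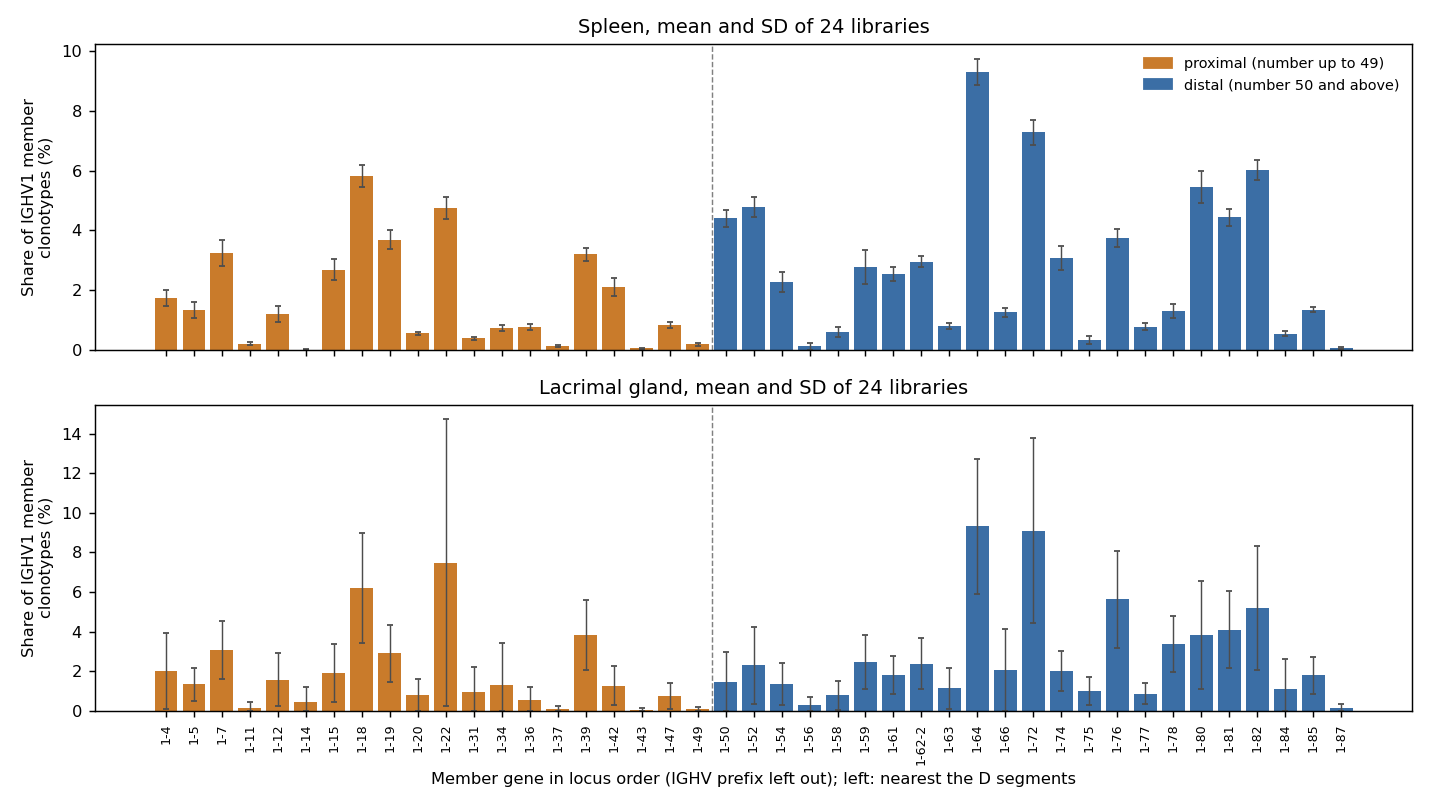
Share of IGHV1 member clonotypes (%) held by each of the 43 genes in locus order, as the mean of 24 spleen libraries (top) and 24 LG libraries (bottom), with bars of 1 SD drawn no lower than 0. Orange marks proximal and blue distal genes, the dashed line marks the boundary between IGHV1-49 and IGHV1-50, and IGHV1-64 is the highest bar in both tissues at 9.30% and 9.31%.

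Weighting by transcript counts instead of clonotypes left IGHV1-64 and IGHV1-72 with the largest shares in the spleen, at 9.16% and 7.17% of member counts against 9.30% and 7.28% of clonotypes. IGHV1-80 held 7.14% of counts against 5.45% of clonotypes, IGHV1-76 held 5.38% against 3.75%, and IGHV1-62-2 held 4.28% against 2.96%. In the LG, IGHV1-22 held 11.7% of counts against 7.48% of clonotypes and IGHV1-72 held 11.98% against 9.11%.

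The first comparison was of the family as a whole. It held 40.9% ± 1.196 of spleen clonotypes (SD, n = 24, 38.9% to 43.7%) and 40.7% ± 5.38 of LG clonotypes (32.2% to 53.1%). The paired difference, LG minus spleen, was -0.169 percentage points, with the LG higher in 9 of 24 mice (p = 0.865, two-sided sign-flip permutation test). This depended on the smallest clonotypes, since with clonotypes of at least 2 counts the family share was 6.775 points higher in the LG (adjusted p = 7e-05), and weighted by counts the difference was 2.90 points (adjusted p = 0.334, sign-flip permutation tests). In the LG the NOD-FMT mice had 42.4% ± 6.63 (n = 10) and the PBS-T mice 38.3% ± 4.54 (n = 9), a difference of 4.06 points that did not exceed the spread (p = 0.142, adjusted p = 0.285, exact two-sided permutation test), and weighted by counts it was -1.70 points (adjusted p = 0.852). In the spleen the difference was 0.822 points (p = 0.177, exact permutation test). All p-values for single values in this report were adjusted by Benjamini-Hochberg over 28 such tests.

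The distal share of member clonotypes in the LG was higher in NOD-FMT than in NC mice, and the difference from PBS-T mice did not hold after adjustment. NOD-FMT mice had 60.5% at the lowest, a median of 68.5% and 78.5% at the highest (68.2% ± 5.08, n = 10). PBS-T mice had 45.4%, 62.0% and 75.3% (59.9% ± 10.8, n = 9). NC mice had 63.4%, 59.9%, 58.1%, 62.6% and 56.5% (60.1% ± 2.91, n = 5). All 3 groups overlapped, PBS-T mice spanned the widest range, and 8 NOD-FMT mice lay above the highest NC mouse.

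NOD-FMT exceeded NC mice by 8.16 percentage points (p = 0.00699, adjusted p = 0.0218, exact permutation test), but without NC mouse 3 or without NC mouse 5 the adjusted p was over 0.05. NOD-FMT exceeded PBS-T mice by 8.38 points (p = 0.0426, adjusted p = 0.108, exact permutation test), and PBS-T and NC mice differed by -0.219 points (p = 0.964, exact permutation test). The excess of NOD-FMT over PBS-T mice passed where the 7 mnphf1 members were left out (10.9 points, adjusted p = 0.0341) or the 5 set-aside genes were kept in (8.22 points, adjusted p = 0.0394, exact permutation tests). With the 5 genes kept in, however, the excess over NC mice no longer passed (6.44 points, adjusted p = 0.0660, exact permutation test). Within libraries not marked as merged by the submitters it was 12.03 points with no overlap, and the exact permutation test of 4 against 4 mice gave the smallest p it can (p = 0.0286, adjusted p = 0.0889), so it could not pass there. The low end of the PBS-T group was made of mouse 8 with 45.4% and mouse 7 with 46.25%, the same mice in which the proximal gene IGHV1-22 held the shares of 32.1% and 25.4%. The submitters marked 6 NOD-FMT, 4 PBS-T and 1 NC LG libraries as merged. Within the merged libraries NOD-FMT exceeded PBS-T mice by 12.35 points (p = 0.0190, adjusted p = 0.0516) and within the others by 6.72 points (p = 0.341, exact permutation tests).

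In the spleen the distal share was narrow, at 66.2% ± 1.16 over 24 mice (63.9% to 68.7%). NOD-FMT mice had 66.6% ± 1.28, PBS-T mice 65.8% ± 1.06 and NC mice 66.2% ± 1.01. The differences of 0.847 points between NOD-FMT and PBS-T mice (adjusted p = 0.285), 0.401 points between NOD-FMT and NC mice (p = 0.552) and -0.446 points between PBS-T and NC mice (p = 0.454) were within the spread (exact permutation tests). Weighted by counts instead of clonotypes, however, NOD-FMT mice had 70.05% ± 2.05 (67.6% to 74.5%), PBS-T mice 67.07% ± 4.76 (60.5% to 73.7%) and NC mice 65.15% ± 2.22 (62.2% to 67.5%). NOD-FMT then exceeded NC mice by 4.90 points (adjusted p = 0.00233, exact permutation test), and these 2 groups did not overlap. In the LG the count-weighted share was 72.54% ± 8.81, 58.51% ± 25.2 and 58.92% ± 14.1 in the same order of groups, and neither difference from NOD-FMT mice passed (adjusted p = 0.259 and 0.144, exact permutation tests). The LG was not shifted as a whole against the spleen, with a paired difference of -2.85 ± 8.38 points (SD of 24 differences, 10 positive, p = 0.110, sign-flip permutation test). By group this difference averaged 1.59 points in NOD-FMT, -5.94 in PBS-T and -6.17 in NC mice, where it was negative in every mouse. The gaps from NOD-FMT to NC and to PBS-T mice did not pass (adjusted p = 0.0679 and 0.402 over 60 tests between groups, exact permutation tests). Within IgA the LG minus spleen difference was -2.34 points (p = 0.214, sign-flip permutation test).

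**Figure D2:**
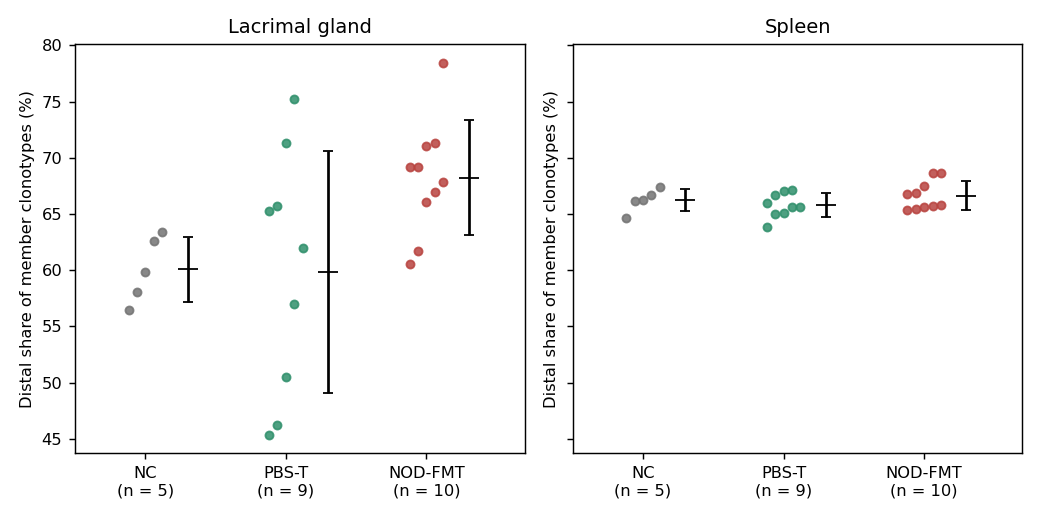
Distal share of IGHV1 member clonotypes (%) in the LG (left) and spleen (right), 1 point per mouse for NC (n = 5), PBS-T (n = 9) and NOD-FMT (n = 10), with the mean and 1 SD beside each group. The vertical axis does not start at 0. The LG means are 60.1%, 59.9% and 68.2%, and the spleen groups sit between 63.9% and 68.7%.

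Gene by gene, among the members tested, the LG and the spleen differed most near the boundary and near the far distal end. Counts of clonotypes per IGHV gene were fitted across all genes with edgeR's quasi-likelihood test with the mouse as a block, and a log2 fold change is of a gene's share of all clonotypes. Of 39 members tested, 14 were called at an adjusted p under 0.05 (35.9%, against 38.5% of all 91 IGHV genes tested), so members were called about as often as other genes. Of the members 3 rose and 11 fell in the LG (12.1% and 26.4% of all genes). The median log2 fold change was -0.13 for members and -0.17 for all genes.

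The 3 that rose were all distal. IGHV1-75 held 0.329% of member clonotypes in the spleen and 0.997% in the LG, with a log2 fold change of 1.65 (SE 0.29, edgeR adjusted p = 1.51e-06), and it was at 0 in the LG of NC mouse 4 and PBS-T mice 2, 3, 6 and 9. IGHV1-78 held 1.31% (0.775% to 1.745%) and 3.37% (0.6015% to 6.45%), with a log2 fold change of 1.25 (SE 0.18, adjusted p = 1.55e-08). IGHV1-76 held 3.75% and 5.635%, with a log2 fold change of 0.50 (SE 0.15, adjusted p = 0.00652). On summed counts in place of clonotypes, the log2 fold changes of IGHV1-75 and IGHV1-78 were -1.41 and -0.0864 and no longer passed. These genes lie near each other, but IGHV1-77, which lies between IGHV1-76 and IGHV1-78, held 0.7905% in the spleen and 0.854% in the LG and was not called.

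Both genes at the boundary fell. IGHV1-50 held 4.40% of spleen (3.945% to 5.21%) but 1.47% of LG member clonotypes (0% to 7.58%), and its log2 fold change was -1.80 (SE 0.21, edgeR adjusted p = 3.24e-11). IGHV1-49 held 0.202% and 0.0685%, with a log2 fold change of -1.79 (SE 0.49, adjusted p = 0.00237), but it rests on 9 LG clonotypes. The next distal genes also fell, IGHV1-52 by 1.34 on the log2 scale (adjusted p = 1.55e-08) and IGHV1-54 by 0.90 (adjusted p = 0.000446). Among the others called lower were IGHV1-42, IGHV1-36, IGHV1-15, IGHV1-80, IGHV1-74, IGHV1-61 and IGHV1-19. By side, none of 18 proximal genes tested rose and 5 fell, and 3 of 21 distal genes rose and 6 fell.

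The fall among distal genes was read beside the primer. Of the 7 mnphf1 members 4 fell and none rose, with a median log2 fold change of -0.60, and of the other 14 distal genes tested 3 rose and 2 fell, with a median of 0.28. Whether primer choice had a part in this was not tested. The LG libraries were also richer in IgA than the spleen libraries. Within IgA clonotypes alone, 8 of 28 members tested were called (23.6% of all genes tested): IGHV1-78 rose with a log2 fold change of 0.58 (adjusted p = 0.0190), and IGHV1-50, IGHV1-52, IGHV1-54, IGHV1-80, IGHV1-58, IGHV1-15 and IGHV1-74 fell, IGHV1-50 by 1.44. IGHV1-76 had a log2 fold change of -0.04 there, so its higher share in the LG was not seen within IgA.

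Within the spleen, single members were used differently in IgA and IgM clonotypes of the same mice. Of 38 members tested, 23 were called (60.5%, against 66.3% of all 89 genes tested), so members were called no more often than genes in general. Of the members 18 were higher and 5 lower in IgA (47.4% and 13.2%, against 30.3% and 36% of all genes). The rises were led by IGHV1-58, which went from 0.550% ± 0.151 of IgM to 1.41% ± 0.720 of IgA member clonotypes, with a log2 fold change of 1.39 (SE 0.11, edgeR adjusted p = 6.43e-14). IGHV1-75 followed with 1.27 (SE 0.14), IGHV1-34 with 0.96 (SE 0.15), IGHV1-78 with 0.81 (SE 0.10) and IGHV1-76 with 0.80 (SE 0.08). The largest falls were of IGHV1-47, by 0.86 on the log2 scale (SE 0.17), IGHV1-52 by 0.46, IGHV1-50 by 0.43 and IGHV1-61 by 0.36. This comparison shares its spleen clonotypes with that of the LG and the spleen, and side by side the log2 fold changes, spleen IgA against IgM first, were 1.27 and 1.65 for IGHV1-75, 0.81 and 1.25 for IGHV1-78, 0.80 and 0.50 for IGHV1-76, -0.43 and -1.80 for IGHV1-50, -0.46 and -1.34 for IGHV1-52 and -0.36 and -0.60 for IGHV1-61. The other genes named here were not called between the LG and the spleen, with 1.39 and 0.26 for IGHV1-58, 0.96 and 0.38 for IGHV1-34 and -0.86 and -0.44 for IGHV1-47. IGHV1-80 went in opposite directions, at 0.23 and -0.68, and was called in both. On summed counts the log2 fold changes of IGHV1-75 and IGHV1-78 were -0.0485 and -0.0208, and IGHV1-58 and IGHV1-34 no longer passed. By side, 6 of 17 proximal genes tested rose and 1 fell, and 12 of 21 distal genes rose and 4 fell.

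**Figure D3:**
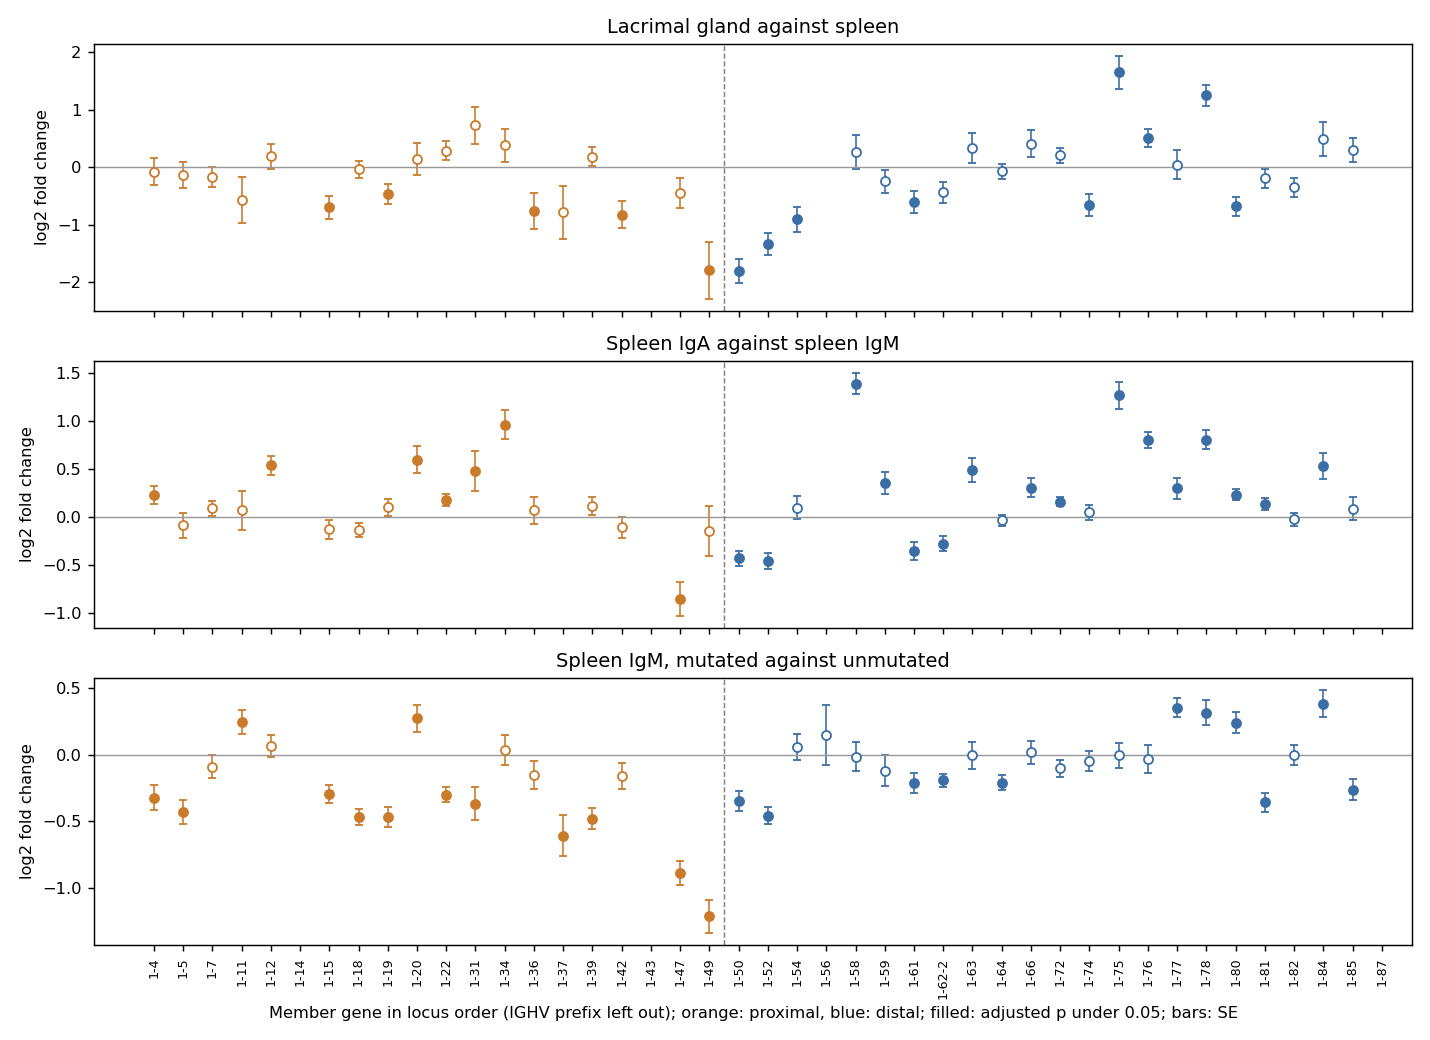
Log2 fold change of each member's clonotype share from edgeR, in locus order, for the LG against the spleen (top), spleen IgA against IgM (middle) and mutated against unmutated spleen IgM (bottom). Bars are 1 SE, filled points have an adjusted p under 0.05, orange is proximal and blue distal, genes without a point were not tested and IGHV1-87 is left out. The top panel dips to -1.80 at IGHV1-50 and peaks at 1.65 at IGHV1-75, and the bottom panel dips to -1.21 at IGHV1-49.

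Although single genes moved with isotype, no difference in the distal share as a whole passed over all mice, and the size and direction of these differences depended on which genes were counted. In the spleen, IgD differed from IgM by 0.223 percentage points (p = 0.322), IgG by -0.0622 (p = 0.921) and IgA by 0.438 (p = 0.474, sign-flip permutation tests over 24 mice). In the LG, where 17 mice had at least 20 member clonotypes of IgM, IgG differed from IgM by 3.90 points (p = 0.356) and IgA by 5.75 points (p = 0.162). With the 5 set-aside genes kept in, IgD was 1.77 points below IgM (a difference of -1.77, adjusted p = 3.5e-05), and without genes numbered 40 to 60 the difference was -0.864 points (adjusted p = 0.00740, sign-flip permutation tests). With the 7 mnphf1 members left out, spleen IgG exceeded IgM by 2.795 points (adjusted p = 0.00371) and IgA exceeded IgM by 3.53 points (adjusted p = 0.00084, sign-flip permutation tests). IGHV1-50, IGHV1-52 and IGHV1-61, which fell in IgA, are among the 7.

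The groups, however, went different ways. In the spleen of all 5 NC mice the switched isotypes held a lower distal share than IgM, and in most of the gavaged mice a higher one. For IgA, NC mice had distal shares of 61.3%, 63.2%, 63.5%, 63.4% and 62.5%, against 66.5% ± 1.01 in their IgM, a difference of -3.69 ± 1.52 points. NOD-FMT mice had 63.0% to 71.3% in IgA, with a difference of 2.01 ± 2.29 points (positive in 9 of 10), and PBS-T mice 63.3% to 69.7%, with a difference of 0.980 ± 2.13 points (positive in 6 of 9). For IgG the differences were -3.57 ± 1.37 points in NC mice (0 of 5 positive), 1.47 ± 1.80 in NOD-FMT (9 of 10) and 0.179 ± 3.10 in PBS-T mice (6 of 9).

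The IgG minus IgM difference was 5.04 points higher in NOD-FMT than in NC mice, with no overlap (p = 0.000333, adjusted p = 0.0200 over 60 tests between groups, exact permutation test). The IgA minus IgM difference was 5.70 points higher in NOD-FMT (p = 0.000666, adjusted p = 0.0200) and 4.67 points higher in PBS-T than in NC mice (p = 0.00200, adjusted p = 0.0400, exact permutation tests). The IgG difference between PBS-T and NC mice, 3.74 points, did not pass (adjusted p = 0.171), and neither did those between NOD-FMT and PBS-T mice, 1.29 points for IgG (p = 0.279) and 1.03 points for IgA (p = 0.321, exact permutation tests). Each of the 3 calls was lost when NC mouse 1, 2, 3 or 5 was left out, with adjusted p between 0.0559 and 0.104, and the IgA call between PBS-T and NC mice was also lost without PBS-T mouse 2, 7 or 8 (adjusted p up to 0.0622), with the 5 set-aside genes kept in (3.77 points, adjusted p = 0.160) and without the 7 mnphf1 members (4.05 points, adjusted p = 0.229). The differences themselves moved little as single mice were left out, from 4.67 to 5.52 points for IgG and from 5.235 to 6.24 for IgA between NOD-FMT and NC mice, and from 4.20 to 5.20 for IgA between PBS-T and NC mice. With 4 NC mice the IgG test gave in every fit the smallest p it can (p = 0.000999, exact permutation test), so its lost calls say nothing of stability. Weighted by counts the differences between NOD-FMT and NC mice were 9.42 points for IgG and 16.1 points for IgA, and neither passed (adjusted p = 0.881 and 0.170, exact permutation tests).

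The genes whose share of switched member clonotypes differed by at least 1 point between NC mice and either gavaged group lay on both sides of the boundary. They were looked up after the group differences were seen and carry no test. In IgA the proximal genes were higher in NC mice: IGHV1-18 held 6.19% ± 1.58 in NC mice against 4.63% in NOD-FMT and 4.78% in PBS-T mice, IGHV1-19 4.78% ± 1.14 against 3.12% and 3.44%, IGHV1-34 2.46% ± 1.06 against 1.25% and 0.986%, and IGHV1-39 4.03% ± 1.40 against 3.05% and 2.63%. The distal genes went both ways. IGHV1-59 held 2.35% in NC mice against 5.01% in NOD-FMT and 2.07% in PBS-T mice, IGHV1-76 5.04% against 7.28% and 5.08%, and IGHV1-64 8.045% against 7.81% and 9.63%, whereas IGHV1-52 held 4.03% against 2.88% and 2.90% and IGHV1-54 3.06% against 1.96% and 2.18%. The largest gaps to NOD-FMT mice in IgA were therefore those of the distal genes IGHV1-59 and IGHV1-76. In IgG, IGHV1-18 held 6.11% against 4.11% and 4.67%, and the distal genes IGHV1-59, IGHV1-64 and IGHV1-80 held 2.77% against 4.41% and 2.19%, 7.49% against 7.95% and 9.51%, and 6.06% against 7.06% and 6.18%.

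**Figure D4:**
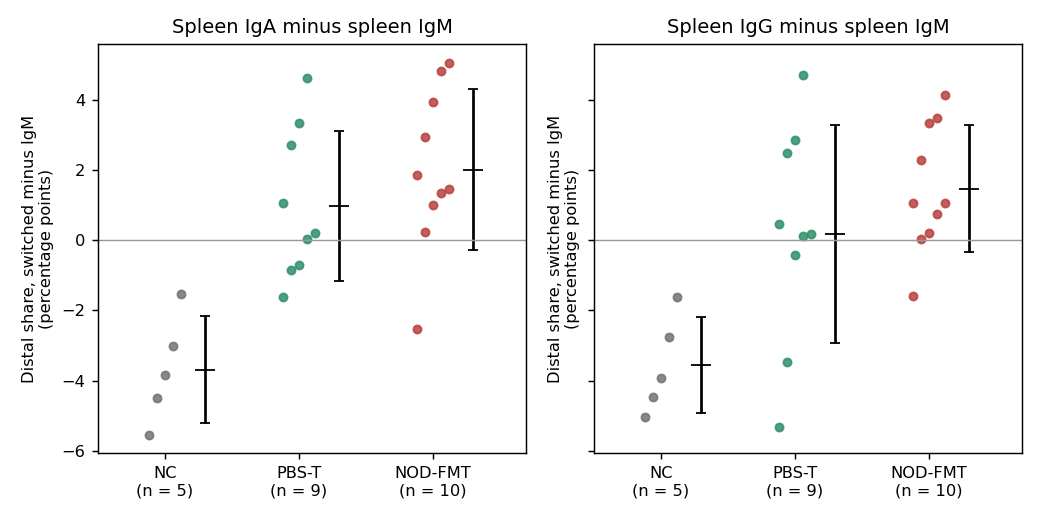
Distal share of IgA minus that of IgM (left) and of IgG minus that of IgM (right) in the spleen, in percentage points, 1 point per mouse with the group mean and 1 SD. All 5 NC mice lie below 0 in both panels, at means of -3.69 and -3.57, and NOD-FMT mice average 2.01 and 1.47.

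The distal share was higher among mutated than among unmutated clonotypes of spleen IgM. A clonotype counted as unmutated where at least 1 of its sequences had no mismatch to its germline IGHV gene and as mutated where at least 1 had any, so it can be in both. The mutated class had 68.95% and the unmutated class 65.7% distal clonotypes, a difference of 3.27 ± 1.65 points that was positive in 24 of 24 mice (p = 1e-05, the smallest these sign-flip permutations can give, adjusted p = 4.67e-05). It was 3.77 in NOD-FMT, 3.70 in PBS-T and 1.52 in NC mice. The gaps to NC mice did not pass (adjusted p = 0.0999 for NOD-FMT and 0.165 for PBS-T mice, exact permutation tests). In IgG the difference was 2.21 points (67.0% against 64.8%, positive in 19 of 24 mice, adjusted p = 0.0113), and in IgA 0.357 points (adjusted p = 0.746, sign-flip permutation tests). By group, the IgG difference was 3.60 points in NOD-FMT (10 of 10 positive), 1.82 in PBS-T (6 of 9) and 0.134 in NC mice (3 of 5). The gap between NOD-FMT and NC mice did not pass (adjusted p = 0.0766, exact permutation test). Over all mice the IgG difference did not pass weighted by counts (3.12 points, adjusted p = 0.541) or with clonotypes of at least 2 counts (1.58 points, adjusted p = 0.232). With the 5 set-aside genes kept in, the IgA difference was 2.23 points and passed (adjusted p = 0.00646, sign-flip permutation tests), whereas weighted by counts it was -3.28 and with clonotypes of at least 2 counts -1.33 points.

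The mean number of mismatches per clonotype was also higher on the distal side in IgM, whereas the difference in IgA depended on the genes and weighting used. Distal IgM clonotypes had 0.7555 and proximal ones 0.656 mismatches, a difference of 0.0991 ± 0.0821 that was positive in 21 of 24 mice (adjusted p = 8e-05), but weighted by counts it did not pass (0.106, adjusted p = 0.150). The distal side includes IGHV1-87 with its 45 mismatches. With each gene's commonest number of mismatches in spleen IgD sequences subtracted, the IgM difference was 0.0611 (adjusted p = 0.00364, sign-flip permutation test). By group, before that subtraction, the IgM difference was 0.0985 in NOD-FMT, 0.141 in PBS-T and 0.0256 in NC mice (positive in 3 of 5). The gap between PBS-T and NC mice did not pass (adjusted p = 0.05245, exact permutation test). In IgG the difference was -0.0612 (p = 0.463, sign-flip permutation test). In spleen IgA distal clonotypes had 3.625 and proximal ones 3.83 mismatches, a difference of -0.201 that was positive in 9 of 24 mice (adjusted p = 0.0442), but the adjusted p was over 0.05 in 13 of the fits that left out 1 mouse. It was also over 0.05 weighted by counts (-0.369, adjusted p = 0.213), with clonotypes of at least 2 counts (-0.254, adjusted p = 0.0878), without genes numbered 40 to 60 (-0.108, adjusted p = 0.347) and without NC mouse 2 and PBS-T mouse 5 (-0.206, adjusted p = 0.0629), and without the 7 mnphf1 members the difference turned to 0.0878 (adjusted p = 0.471, sign-flip permutation tests). In LG IgA the values were 2.54 and 2.365, positive in 18 of 24 mice (adjusted p = 0.332, sign-flip permutation tests).

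By gene, 25 of 41 members tested changed between mutated and unmutated spleen IgM (61.0%, against 76.3% of all 93 genes tested), 7 higher and 18 lower in the mutated class (17.2% and 59.1% of all genes). The median log2 fold change was -0.12 for members and -0.30 for all genes. The falls were led by the last 2 proximal genes: IGHV1-49 fell by 1.21 on the log2 scale (SE 0.12, edgeR adjusted p = 7.88e-11) and IGHV1-47 by 0.89 (SE 0.09, adjusted p = 7.31e-11), and IGHV1-37 and IGHV1-39 fell by 0.61 and 0.48. IGHV1-84 rose by 0.38, IGHV1-77 by 0.35 and IGHV1-78 by 0.32 (SE 0.09, adjusted p = 0.00225), and IGHV1-80, IGHV1-11 and IGHV1-20 also rose. On summed counts IGHV1-84 and IGHV1-77 turned to -0.44 and -0.27. IGHV1-87 was called as well, but none of its IgM clonotypes was unmutated, so no fold is given. Of 18 proximal genes tested 2 rose and 11 fell, and of 23 distal genes 5 rose and 7 fell.

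The same clonotypes can be given as the unmutated percentage of each gene's spleen IgM clonotypes, where a clonotype in both classes counts in each. Among 40 genes with at least 1000 IgM clonotypes, the median was 82.95% over 18 proximal genes (76.9% to 90.6%) and 79.8% over 22 distal genes (75.6% to 84.0%). IGHV1-49 was highest with 90.6% ± 6.35 (SD, n = 24), followed by IGHV1-47 with 87.6% and IGHV1-37 with 86.3%. IGHV1-84 with 75.6% ± 10.25, IGHV1-77 with 75.6% ± 9.84 and IGHV1-78 with 75.7% ± 11.2 were lowest and did not differ beyond their spread.

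The sides of the locus also differed slightly in HCDR3 length and IGHJ use, taken over clonotypes of all isotypes and mutation classes. In the spleen, HCDR3 averaged 11.61 residues in distal and 11.54 in proximal clonotypes, a difference of 0.0777 ± 0.0382 that was positive in 24 of 24 mice (adjusted p = 4.67e-05). IGHJ2 was used by 37.4% of distal and 34.3% of proximal clonotypes, a difference of 3.11 points that was positive in 24 of 24 mice. IGHJ1, IGHJ3 and IGHJ4 made up the balance, at 14.4% against 15.5%, 23.0% against 23.9% and 25.17% against 26.3%, and each was positive in 1 of 24 mice. Each of these had an adjusted p of 4.67e-05 (sign-flip permutation tests). Weighted by counts, however, the differences of IGHJ3 (-1.30 points, adjusted p = 0.435) and IGHJ4 (-1.28 points, adjusted p = 0.213) did not pass, and with clonotypes of at least 2 counts that of IGHJ4 turned to 0.373 points (adjusted p = 0.475, sign-flip permutation tests). The groups did not differ from each other in any of them at an adjusted p under 0.05.

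Between NOD-FMT and PBS-T mice 1 member differed in the spleen and 1 in the LG. In the spleen 1 of 43 members tested was called (1.01% of all 99 genes tested), IGHV1-59, whose log2 fold change in NOD-FMT mice was 0.41 (SE 0.10, edgeR adjusted p = 0.0425). It held 2.605% of member clonotypes at the lowest, 2.90% at the median and 5.005% at the highest in NOD-FMT mice, 2.21%, 2.39% and 2.735% in PBS-T mice, and 3.07%, 2.77%, 2.45%, 2.51% and 2.74% in NC mice. The NOD-FMT and PBS-T ranges overlapped only slightly, but the call was lost in 11 of 19 fits that left out 1 mouse (adjusted p up to 0.108), among them those without NOD-FMT mouse 1, 2, 7 or 9 and without PBS-T mouse 1, 2, 3, 5, 6, 8 or 9, in the fit with the replicate number as a block (adjusted p = 0.0728), and on summed counts (log2 fold change 1.445, adjusted p = 0.0605).

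Within spleen IgA the difference in IGHV1-59 was larger. There 2 of 34 members tested were called (5.56% of all 72 genes tested in either direction, 4.17% higher in NOD-FMT mice), IGHV1-59 with a log2 fold change of 1.39 (SE 0.22, edgeR adjusted p = 8.5e-06) and IGHV1-76 with 0.60 (SE 0.14, adjusted p = 0.00405). IGHV1-59 held 2.83%, 4.59% and 8.43% (lowest, median and highest) of IgA member clonotypes in NOD-FMT mice (5.01% ± 1.56), 1.03%, 1.92% and 3.65% in PBS-T mice (2.07% ± 0.867) and 2.35% ± 0.442 in NC mice. In spleen IgG it held 4.41% ± 1.92 in NOD-FMT, 2.19% ± 0.523 in PBS-T and 2.77% ± 0.940 in NC mice. In LG IgA it held 3.52% ± 1.44, 1.15% ± 1.23 and 2.26% ± 1.14, and it was at 0 in 4 of the 9 PBS-T mice and above 0 in every NOD-FMT mouse. Those 4, PBS-T mice 1, 2, 4 and 9, had 262, 81, 266 and 116 IgA member clonotypes in the LG. Over all isotypes the gene held 0.535% and 1.97% in the LG of mice 2 and 9 and was at 0 in mice 1 and 4. These isotype values come from the mice in which the gene was first called and are no separate evidence.

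IGHV1-76 was the called member in the LG. Of 11 members tested it alone was called (14.8% of all 27 genes tested), with a log2 fold change of 1.05 (SE 0.31, edgeR adjusted p = 0.0119). The call was lost with no filter on low counts (log2 fold change 1.05, adjusted p = 0.0811) and on summed counts (log2 fold change 1.54, edgeR adjusted p = 0.301). The median over members was 0.41 and over all genes 0.18. It held 3.95%, 7.35% and 10.8% (lowest, median and highest) of LG member clonotypes in NOD-FMT mice, 0.993%, 3.74% and 7.19% in PBS-T mice, and 4.81%, 3.365%, 4.63%, 7.21% and 5.38% in NC mice, and the groups overlapped. Within LG IgA it was 1 of 7 members tested that was called (14.3% of all 14 genes tested), with a log2 fold change of 1.03 (SE 0.34, adjusted p = 0.0396), and it held 8.09% ± 2.47 in NOD-FMT, 4.07% ± 2.22 in PBS-T and 5.26% ± 2.11 in NC mice. In spleen IgA it held 7.28% ± 1.53, 5.08% ± 1.48 and 5.04% ± 1.36. The LG values of IGHV1-22 went the other way, at 4.96% ± 2.19 in NOD-FMT and 10.74% ± 10.57 in PBS-T mice, but its log2 fold change of -0.97 did not pass (adjusted p = 0.0876, edgeR).

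**Figure D5:**
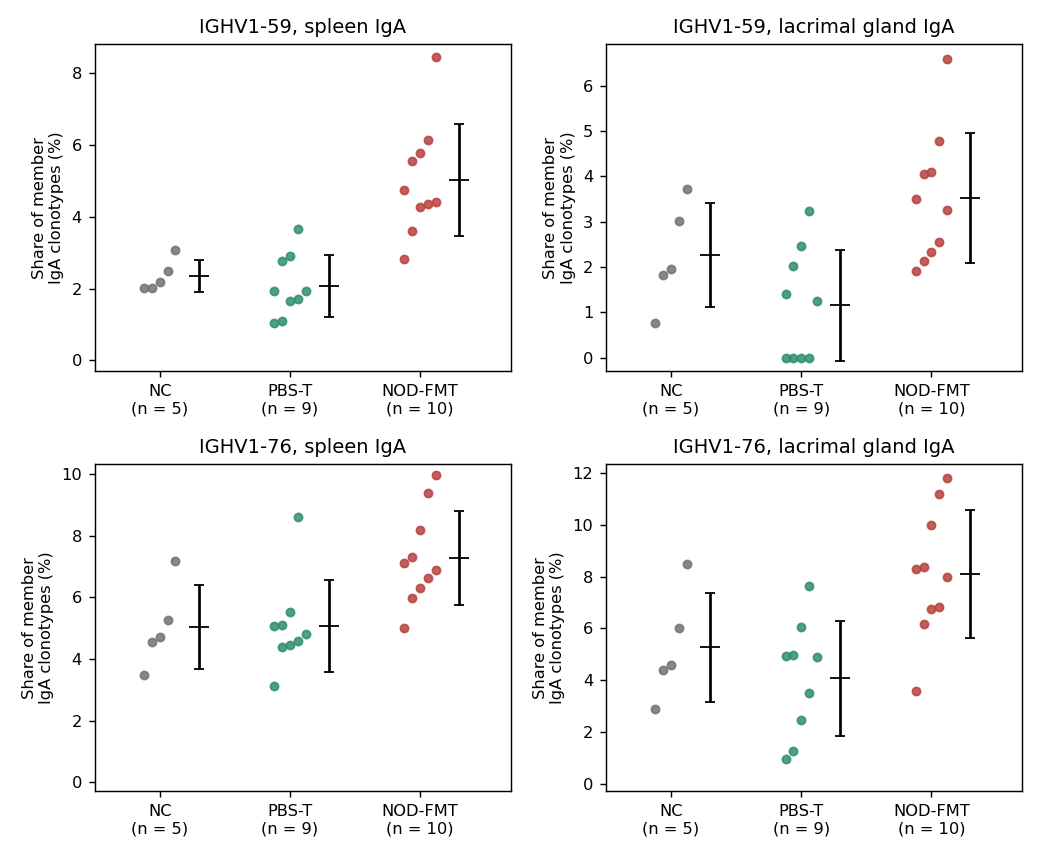
Share of member IgA clonotypes (%) held by IGHV1-59 (top) and IGHV1-76 (bottom) in the spleen (left) and LG (right), 1 point per mouse with the group mean and 1 SD. IGHV1-59 averages 5.01% in spleen IgA of NOD-FMT mice against 2.07% in PBS-T and 2.35% in NC mice, and is at 0 in LG IgA of 4 PBS-T mice, which had 81 to 266 IgA member clonotypes there.

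Other features of these clonotypes were examined for IGHV1-59 and IGHV1-76 in spleen IgG and IgA, in 28 exact permutation tests of mutation, HCDR3 length and IGHJ use between NOD-FMT and PBS-T mice with at least 10 such clonotypes. In IgG, 28.4% ± 8.19 of IGHV1-59 clonotypes were unmutated in NOD-FMT mice (n = 10) against 50.9% ± 11.7 in PBS-T mice (n = 8), with p = 0.000343 and an adjusted p of 0.00960 in the exact permutation test. The unmutated percentage was also lower in NOD-FMT than in PBS-T mice in the other 3 sets, at 31.0% against 48.2% for IGHV1-59 in IgA (adjusted p = 0.0603), 31.8% against 44.2% for IGHV1-76 in IgG (adjusted p = 0.0974) and 27.8% against 36.2% for IGHV1-76 in IgA (adjusted p = 0.0603, exact permutation tests). NC mice, not part of these tests, had 47.15% and 35.5% for IGHV1-59 in IgG and IgA, and 43.4% and 24.8% for IGHV1-76. In IgG they lay nearer to PBS-T mice, and in IgA nearer to NOD-FMT mice, for IGHV1-76 below them. The other 41 members together had 37.1% ± 4.02 in NOD-FMT, 43.9% ± 8.32 in PBS-T and 43.5% ± 6.47 in NC mice in IgG. In IgA they had 33.1% ± 2.90, 40.7% ± 5.27 and 30.6% ± 2.72. The values of the other members were computed after these tests were seen and not tested. IGHJ4 was used by 37.4% ± 8.96 of IGHV1-59 IgG clonotypes against 21.8% ± 9.17 (adjusted p = 0.0426, exact permutation test). In IgA, IGHJ4 was used by 33.1% against 19.2% (adjusted p = 0.0603, exact permutation test). The remaining tests did not pass. The clonotypes were unevenly spread over mice: NOD-FMT mouse 3 held 441 of the 1197 IgA and 919 of the 1815 IgG clonotypes of IGHV1-59 in its group.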

How the data were processed

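BCR heavy-chain transcripts of 48 libraries, the LG and spleen of 24 mice, were analysed. Per the paper's methods, the authors merged paired reads with PEAR, filtered them by quality, grouped them by molecule tag (UMI) with Clustal Omega, dropping singletons, assigned isotypes from IMGT constant genes and IGHV and IGHJ genes with IgBLAST, and kept productive sequences. The labels name mm10, and the germline release is not given in the sources used here. The deposited tables hold counts of consensus sequences per unique sequence, without normalization, and the fraction of the library that each count makes up, which the authors computed and which was used only to check the totals. They also hold mismatches to the germline IGHV gene.

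Sequences that 3 or more mice held identically in a tissue were removed, which took 0.143% to 66.6% of a library's counts (median 6.28%). The rule is that worded in the paper's methods, but the counts it left differ from those in the study's own tables. It took more here from every spleen library and from most LG libraries, and less from some LG libraries such as that of NC mouse 2. As a share of counts the gap was largest in the LG of PBS-T mouse 5 and the spleen of PBS-T mouse 6. Its reason is not known. Without the filter, no tested value changed its direction or side of the threshold, and no number of called members moved beyond a factor of 1.5. Clonotypes were then formed and shares computed per mouse, where a class held at least 20 member clonotypes. Two-sided exact permutation tests compared groups, and sign-flip permutations (100000, for 24 mice) compared classes within mice, with Benjamini-Hochberg adjustment over 28 single values, and over 60 tests between groups. Genes were tested with edgeR 4.0.16 on clonotype counts, with each library's total over all clonotypes as its size and the mouse as a block within mice, and DESeq2 1.42.0 was an alternative. Replicates are separate mice, so the spread includes both biological and technical differences. The depth of the LG, 40513 to 360216 counts, limits the precision of its shares.

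The members and lists were chosen with earlier results of these data known. Named genes were the 8 most used of each tissue, up to 4 called per direction and fit with a mean of at least 5 clonotypes, the boundary genes, and the 3 most and 3 least unmutated of genes with at least 1000 IgM clonotypes. IGHV1-59 and IGHV1-76 were examined by isotype after these calls were seen. Primer sites were read for the placed genes, and recombination signals were not analysed here. Positions come from GENCODE M21 (GRCm38), and primers from the study's primer list. NOD-FMT and PBS-T mice share replicate numbers, but same-numbered mice did not deviate together over genes (mean r -0.0161 in the LG and -0.0218 in the spleen, over 0.1 in 2 of 9 pairs in each), so numbers were not treated as pairs. Over the 9 same-numbered pairs the r of the distal and of the family share was 0.587 and 0.679 in the spleen and 0.151 and -0.0163 in the LG. The tests were checked on simulated data. Alternatives were counts in place of clonotypes, other filters, gene sets, normalizations and left-out mice. Python 3.11.15, numpy 2.4.6, pandas 2.3.3, scipy 1.17.1, matplotlib 3.10.9 and R 4.3.3 were used.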

Additional observations from a re-analysis of the deposited data

Results flagged for a closer look

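A single mouse stood apart from its group in 3 values, by a test of the gap to the nearest mouse against the whole range, which chance passes in about 1 of 20 groups and which was run on 39 groups. In NOD-FMT mouse 1 the distal share of spleen IgA member clonotypes was 63.04%, against 67.35% to 71.33% in the other NOD-FMT mice. In NOD-FMT mouse 2 distal IgM clonotypes had 0.120 fewer mismatches than proximal ones (a difference of -0.120), against differences of 0.0543 to 0.192 in the others. In NOD-FMT mouse 3 IGHV1-59 held 5.005% of spleen member clonotypes, against 2.605% to 3.61% in the others.

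The difference in distal share between switched and IgM clonotypes of the spleen was not the same in all groups. The IgG minus IgM difference was 5.04 percentage points higher in NOD-FMT than in NC mice, the IgA minus IgM difference was 5.70 points higher in NOD-FMT than in NC mice, and the latter was 4.67 points higher in PBS-T than in NC mice. Each call was lost when NC mouse 1, 2, 3 or 5 was left out, where the IgG test was at the smallest p that 4 NC mice allow, and that between PBS-T and NC mice also without PBS-T mouse 2, 7 or 8. Leaving out each mouse in turn, the differences stayed between 4.67 and 5.52, 5.235 and 6.24, and 4.20 and 5.20 points. Antibiotics, gavage and age, and for NOD-FMT mice the fecal transfer, cannot be told apart here.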

How the results depend on the processing

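Of 1055 recomputed values of 36 results that answer a comparison, 923 were unchanged, and of 787 values for named genes 753 were. A tested value was unchanged where it kept its direction and side of the threshold. A number of called members was unchanged where it stayed within a factor of 1.5, and a gene's mean share where it stayed within 1 SD. The cause of each change was not tested. Precision was lowest in the LG, where 1 gene often rests on few clonotypes.

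Weighting by duplicate_count in place of clonotypes, the distal share of the LG was 13.6 points higher in NOD-FMT than in NC mice (no longer called, adjusted p = 0.144) and that of the spleen 4.90 points higher (now called, adjusted p = 0.00233). The spleen difference PBS-T minus NC turned to 1.92, the family share NOD-FMT minus PBS-T in the LG to -1.70, the family share LG minus spleen to 2.90, spleen IgD minus IgM to -1.74, LG IgG minus IgM to -2.51, LG IgA minus IgM to -1.41, spleen IgA mutated minus unmutated to -3.28 and the IgG mismatch difference to 0.106. The calls were lost for IgG mutated minus unmutated (3.12), mismatches in IgM (0.106) and IgA (-0.369), IGHJ3 (-1.30), IGHJ4 (-1.28), and the NOD-FMT minus NC difference in IgG minus IgM (9.42) and IgA minus IgM (16.1). In the gene fits on summed counts 30 members were called between LG and spleen, and 0 between NOD-FMT and PBS-T mice in the LG and 0 in the spleen. The share of all genes called on summed counts is not given here, so the 30 describes the fit and not the family. Log2 fold changes turned to -0.0864 for IGHV1-78 and -1.41 for IGHV1-75 in the LG against the spleen, to -0.0485 for IGHV1-75 and -0.0208 for IGHV1-78 in IgA against IgM, and to -0.27 for IGHV1-77 and -0.44 for IGHV1-84 in mutated IgM.

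With clonotypes of at least 2 counts, the LG difference PBS-T minus NC turned to 2.35, the family share LG minus spleen to 6.775 (adjusted p = 7e-05), IgA minus IgM to -1.14, IgA mutated minus unmutated to -1.33 and IGHJ4 to 0.373, and the calls were lost for IgG mutated minus unmutated (1.58) and IgA mismatches (-0.254). With the 5 set-aside genes included, the LG difference NOD-FMT minus PBS-T was called (8.22, adjusted p = 0.0394) and NOD-FMT minus NC was not (6.44, adjusted p = 0.0660). Spleen NOD-FMT minus NC turned to -0.394, IgD minus IgM to -1.77 (adjusted p = 3.5e-05), IgG minus IgM to 0.964, mismatches in IgG to 0.0533 and in LG IgA to -0.0667. IgA mutated minus unmutated was called (2.23), and IgA minus IgM, PBS-T minus NC, was not (3.77).

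Without genes numbered 40 to 60, the LG difference PBS-T minus NC turned to 0.828, IgD minus IgM to -0.864, IgG minus IgM to 0.780 and IgG mismatches to 0.00740, and IgA mismatches lost the call (-0.108). Without the mnphf1 members, the LG difference NOD-FMT minus PBS-T was called (10.9, adjusted p = 0.0341), as was IgA minus IgM (3.53). LG minus spleen turned to 0.376, spleen PBS-T minus NC to 0.0367, IgG minus IgM to 2.795 (adjusted p = 0.00371), and mismatches to 0.183 in IgG and 0.0878 in IgA, and IgA minus IgM, PBS-T minus NC, lost the call (4.05). In IgA only, the LG difference PBS-T minus NC turned to 1.71, 2 members were called between spleen groups and 8 between tissues, and IGHV1-76 turned to -0.0443 between LG and spleen.

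In LG libraries not marked merged, PBS-T minus NC turned to 5.32 and NOD-FMT minus NC was 12.03 (adjusted p = 0.0889, at the smallest p that 4 against 4 mice allow). Without NC mouse 2 and PBS-T mouse 5, an alternative chosen after seeing the data, spleen PBS-T minus NC turned to 0.0888 and IgG minus IgM to 0.215. The calls were lost for IgA mismatches (-0.206), for IgG minus IgM, NOD-FMT minus NC (5.24), for IgA minus IgM, NOD-FMT minus NC (5.50) and PBS-T minus NC (4.68), and 0 members were called between spleen groups. With sequences in 2 or more mice removed, IgG minus IgM turned to 0.0183. Between NOD-FMT and PBS-T mice in the LG, 2 members were called with TMM normalization, 2 with DESeq2 and 0 with no filter on low counts. The shares of all genes called in these fits are not given here, so the counts describe the fits and not the family.

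With the replicate number as a block, 0 members were called between the spleens of NOD-FMT and PBS-T mice, where IGHV1-59 had an adjusted p of 0.0728, and the distal difference was 8.28 points in the LG (p = 0.0820) and 0.830 in the spleen (p = 0.0547, exact sign-flip permutation tests). The block changed no other call. Without the mouse as a replicate block, 22 members were called between LG and spleen, again with no share over all genes to set beside it.

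Leaving out each mouse in turn, the LG difference NOD-FMT minus NC ranged from 7.02 to 9.01, PBS-T minus NC from -2.145 to 1.59 and NOD-FMT minus PBS-T from 6.57 to 10.3 (called without PBS-T mouse 4). The family share LG minus spleen ranged from -0.588 to 0.153, IgG minus IgM from -0.270 to 0.167 and IgA mismatches from -0.232 to -0.174. In the NOD-FMT against PBS-T fits, 1 to 3 members were called in the LG (2 without NOD-FMT mouse 3, 3 without PBS-T mouse 4) and 0 to 1 in the spleen. No share over all genes is given to set beside these counts either. The differences between groups ranged from 4.67 to 5.52 for IgG, NOD-FMT minus NC, from 5.235 to 6.24 for IgA, NOD-FMT minus NC, and from 4.20 to 5.20 for IgA, PBS-T minus NC.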

Other observations

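Mismatches per member clonotype are given by tissue and group as values, with no test between tissues or groups. In LG IgA the member clonotypes averaged 2.54 mismatches on the distal and 2.365 on the proximal side, and in spleen IgA 3.625 and 3.83. By group, distal LG IgA clonotypes averaged 2.25 mismatches in NOD-FMT, 2.47 in PBS-T and 3.24 in NC mice, and distal spleen IgA clonotypes 3.615, 3.295 and 4.24. The NC mice thus had the highest mean in both tissues. These values were looked up after the comparisons were made.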
